A study of Homo sapiens with 16 samples.

Results

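The 10 genes described here encode bone morphogenetic protein (BMP) ligands and the proteins that block them. BMP2, BMP4, BMP5 and BMP7 are ligands. GREM1, CER1, NOG, CHRD and FST are secreted antagonists, and BAMBI is a membrane pseudoreceptor, so it is not secreted. They were taken by exact gene symbol from the authors' deposited table, and each of the 10 was found once among its 23284 genes.

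BMP ligands are secreted dimers of the TGF-beta family that bind pairs of serine-threonine kinase receptors, which phosphorylate SMAD1, SMAD5 and SMAD9 to switch on genes such as the ID and MSX families. NOG, CHRD and GREM1 bind ligands outside the cell and keep them from the receptors, CER1 also binds NODAL, and FST binds activin most tightly. In the embryo, graded BMP signalling together with WNT signalling sets the border between neural plate and epidermis, where the neural crest arises.

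WA01 human embryonic stem cells, an established line, were driven toward neural crest with 3 µM CHIR99021, which inhibits GSK3 and so activates WNT signalling. The 16 libraries of poly-adenylated RNA cover day 3, labelled pre-neural crest, and day 5, labelled neural crest, in isoWT1 and isoWT2, 2 isogenic wild types, and in the edited lines Het and KO, with 2 replicates in each of 8 groups. Het and KO were cut with Cas9 and a single guide RNA at the start codon of FOXB1, a forkhead transcription factor, and the study asked how loss of that protein changes expression during induction. All groups were plated at 20000 cells per square centimetre and received the same medium, with 10 µM Y-27632 (a ROCK inhibitor) at plating. The labels give neither the number of clones behind each edited line nor separate cultures behind the replicates.

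The authors' deposited table has 6 groups: wild type, Het and the line it calls HOMO, read here as KO, at each day. Its wild-type group is not tied to either of the isogenic lines. It holds 1 FPKM value (fragments per kilobase of transcript, scaled to the mapped fragments of a library) per gene and group, so values per library, counts and depth are unknown. The standard error (SE) given with each value below is the one the deposited test scores imply, and a gene is called higher or lower, or said to rise or fall, where its deposited q is below 0.05. These q-values measure only the spread between the libraries, which may be technical. They come from Cuffdiff's own p-values, which were mostly smaller than a normal p from the difference over its SE. FOXB1 RNA was at 18.3 ± 4.83 FPKM for wild type, 7.73 ± 2.32 for Het and 15.5 ± 4.37 for KO at day 3. By day 5 the levels were 5.51 ± 1.70, 4.47 ± 0.926 and 1.86 ± 0.678 FPKM. An edit at the start codon need not lower the RNA, so these levels do not check the genotypes. Of the 10 neural crest and border markers, 6 reached 1 FPKM for wild type at day 5. SNAI2 (23.2 FPKM) and PAX3 (9.35) were the highest, and ZIC1 (0.605), SOX10 (0.388), PAX7 (0.206) and FOXD3 (0.198) were below 1 FPKM.

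Most differences of the members from wild type were seen at day 3. In KO against wild type 7 of the 10 members were higher and 1 was lower in the authors' deposited table, where 4.34% of all 14678 tested genes were called higher and 5.17% lower. The higher members were the ligands BMP2, BMP4 and BMP7, the antagonists GREM1, CER1 and NOG, and BAMBI, while CHRD was lower. The median log2 change over the members was 3.58, beside -0.02 over all tested genes. In Het against the same wild-type group 5 of 9 tested members were higher and 1 was lower in the authors' deposited table, beside 1.68% and 4.63% of 14618 tested genes. Those 5 were BMP2, BMP4, GREM1, NOG and BAMBI, and the median over all 10 members was 1.28, beside -0.04 over all tested genes. In bulk RNA of this kind fewer cells of a type and less RNA per cell cannot be told apart. Expressed genes were also grouped in bins of transcript GC content. From the lowest to the highest bin, the median log2 change at day 3 went from 0.17 to -0.79 in KO and from 0.27 to -0.73 in Het. In KO against Het at day 3 it went from -0.09 to -0.06. At day 5 it went from -0.19 to 0.03 in KO and from -0.25 to 0.29 in Het. The cause of the day 3 trend, in comparisons that share 1 wild-type group, was not tested.

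At day 5 fewer members were called. In KO 3 of 10 were higher (BMP4, GREM1 and BAMBI) and 1 was lower (FST) in the authors' deposited table, beside 7.58% and 5.68% of 14936 tested genes. In Het 2 of 9 tested members were higher (BMP4 and GREM1) and none was lower in the authors' deposited table, beside 1.14% and 1.02% of 14561 tested genes; at an unadjusted p below 0.05 by Cuffdiff, 1 was lower. The median over all 10 members was 0.75 in KO and 0.34 in Het, beside 0.03 and -0.03 over all tested genes. BMP4 and GREM1 were thus above wild type in both edited lines at both days, in comparisons that share the wild-type groups.

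**Figure D1:**
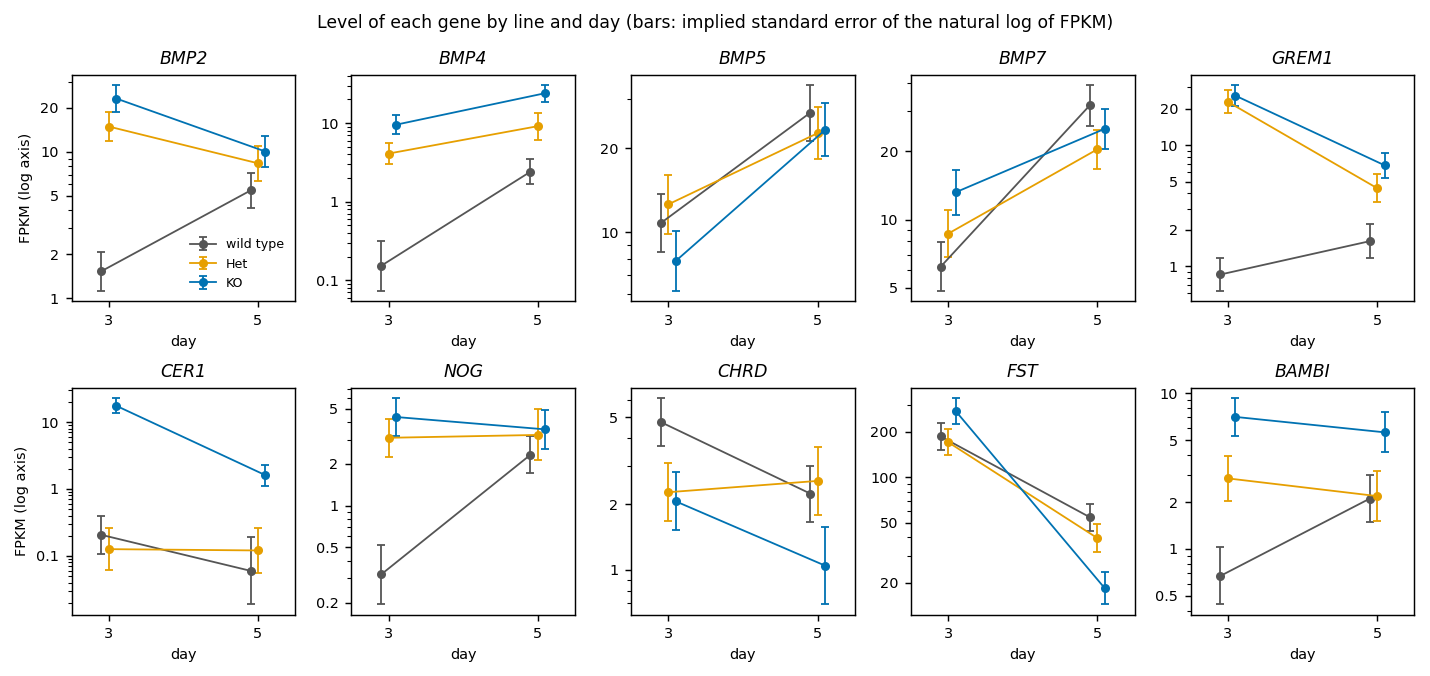
FPKM of the 10 members in the 6 groups of the authors' deposited table, on a log axis, 1 panel per gene; points are group values and bars are 1 implied standard error of the natural log of FPKM. BMP4 goes from 0.153 FPKM in wild type at day 3 to 24.1 in KO at day 5, and CER1 stands above 1 FPKM in KO alone.

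BMP4 (hg19 chromosome 14, 54416455 to 54423554) is the ligand most closely tied to epidermal and border fates. It had 0.153 ± 0.113 FPKM in wild type, 4.10 ± 1.25 in the Het line and 9.55 ± 2.72 in the KO line at day 3. By day 5 the levels were 2.40 ± 0.873, 9.15 ± 3.59 and 24.1 ± 5.88 FPKM. The levels were ordered wild type, Het, KO at both days, and the wild-type level at day 3 was the lowest of the 6. The log2 difference of KO from wild type was 5.97 (SE 1.14, q = 0.00399 in the authors' deposited table) at day 3 and 3.32 (SE 0.63, q = 0.00126) at day 5. For Het it was 4.75 (SE 1.15, q = 0.00399 in the authors' deposited table) at day 3 and 1.93 (SE 0.77, q = 0.00316) at day 5. KO also stood above Het, by 1.22 (SE 0.60, q = 0.0407 in the authors' deposited table) at day 3 and 1.40 (SE 0.67, q = 0.0223) at day 5. The day 3 call between KO and Het is lost when p-values are adjusted within that comparison alone. With wild type at so low a level at day 3, the size of the folds against it is poorly determined, and with a pseudocount of 1 FPKM they were 3.19 in KO and 2.14 in Het on the log2 scale. Sorted by level, the neighbours that differed were wild type at day 3 from wild type at day 5 and KO at day 3 from KO at day 5, and the levels between them did not differ from their neighbours by the deposited q.

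Among the members matched to a promoter window, BMP4, GREM1, BAMBI and CER1 had the largest day 3 differences in KO. The sequence before a start site of each is therefore shown. RefSeq windows (GRCh38.p14) of 250 bases before to 50 after a start site were found for 7 of the 10 members, in 10 windows. BMP2, BMP7 and NOG were not matched. Each window was searched on both strands for TGTTTA (a forkhead core), CTTTGA (a TCF/LEF core) and GGCGCC (a GC-rich palindrome bound by SMADs). In the member windows no match overlapped another, and 12.3%, 12.9% and 19.2% of 35116 RefSeq windows of the same length hold them. The runs below hold the 250 bases before the start site and 10 after it, 5′ to 3′ on the strand of the gene, with matches in capitals. They are chr14:53955041-53955300 on the minus strand for BMP4, chr15:32717754-32718013 on the plus strand for GREM1, chr10:28677271-28677530 on the plus strand for BAMBI and chr9:14722724-14722983 on the minus strand for CER1.
BMP4: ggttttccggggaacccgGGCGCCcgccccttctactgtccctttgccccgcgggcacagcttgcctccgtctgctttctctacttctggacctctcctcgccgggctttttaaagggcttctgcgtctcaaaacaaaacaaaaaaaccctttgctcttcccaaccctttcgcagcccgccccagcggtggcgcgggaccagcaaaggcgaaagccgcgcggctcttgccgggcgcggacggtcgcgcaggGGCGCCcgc
GREM1: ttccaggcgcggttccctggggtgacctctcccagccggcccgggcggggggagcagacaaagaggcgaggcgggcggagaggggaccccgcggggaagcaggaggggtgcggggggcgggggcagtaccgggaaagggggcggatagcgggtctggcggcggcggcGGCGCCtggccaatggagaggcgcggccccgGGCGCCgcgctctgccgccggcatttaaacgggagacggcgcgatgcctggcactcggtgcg
BAMBI: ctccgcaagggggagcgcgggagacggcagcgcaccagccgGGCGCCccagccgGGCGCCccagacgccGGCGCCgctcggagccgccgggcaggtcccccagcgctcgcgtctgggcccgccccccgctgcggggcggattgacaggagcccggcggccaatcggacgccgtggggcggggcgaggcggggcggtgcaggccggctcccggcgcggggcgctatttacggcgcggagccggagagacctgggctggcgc
CER1: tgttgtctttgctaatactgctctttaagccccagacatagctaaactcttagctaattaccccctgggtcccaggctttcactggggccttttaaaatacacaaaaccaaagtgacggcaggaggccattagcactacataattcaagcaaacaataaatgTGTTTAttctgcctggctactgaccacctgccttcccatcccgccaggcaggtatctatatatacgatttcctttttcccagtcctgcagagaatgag
The capitals are GGCGCC in the BMP4, GREM1 and BAMBI runs and TGTTTA in the CER1 run. The GC content of these runs was 65.0% for BMP4, 76.5% for GREM1, 81.5% for BAMBI and 45.0% for CER1, and the median over all 300-base windows was 58.7%. The BMP4 and GREM1 runs come from the most upstream of their windows. Windows 2 and 3 of BMP4 and window 2 of GREM1, which are not shown, held no match, nor did those of BMP5 and FST. The CHRD window held GGCGCC once. A match of 6 letters is a description of the window, and no binding was measured.

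BMP2 (chromosome 20, 6748745 to 6760910) is a close relative of BMP4 that uses the same receptors. Its day 3 level was 1.53 ± 0.475 FPKM (wild type), 14.9 ± 3.43 (Het) and 23.2 ± 4.99 (KO). The day 5 levels were 5.45 ± 1.51 FPKM for wild type, 8.36 ± 2.27 for Het and 10.1 ± 2.44 for KO. Both edited lines had their higher value at day 3 and wild type had its higher value at day 5. The day 3 differences were 3.92 (SE 0.54) in KO and 3.28 (SE 0.56) in Het on the log2 scale, both with q = 0.00126 in the authors' deposited table. At day 5 they were 0.88 (SE 0.53, q = 0.0817 in the authors' deposited table) and 0.62 (SE 0.56, q = 0.308), and neither was called. From wild type at day 5 up to KO at day 3, no neighbours in the order of levels differed by the deposited q.

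BMP7 (chromosome 20, 55743809 to 55841707), expressed in ectoderm and able to pair with BMP2 or BMP4, had a day 3 level of 6.19 ± 1.53 FPKM for wild type, 8.66 ± 2.07 for Het and 13.2 ± 2.99 for KO. By day 5 the levels were 32.0 ± 6.63 (wild type), 20.4 ± 4.09 (Het) and 25.2 ± 5.17 FPKM (KO). All day 5 levels lay above all day 3 levels. Only the day 3 difference in KO was called among those with wild type, at 1.09 (SE 0.48, q = 0.00935 in the authors' deposited table), beside 0.48 (SE 0.50, q = 0.366) in Het. BMP7 transcripts have a GC content of 60.1%, and the median change of genes in that GC bin was -0.42 in KO and -0.41 in Het at day 3. Taken relative to the bin, Het was called too, at 0.90 at day 3 and at -0.78 at day 5.

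BMP5 (chromosome 6, 55620238 to 55740375), a ligand of the same subgroup as BMP7, had a day 3 level of 10.8 ± 2.61 FPKM for wild type, 12.6 ± 3.06 for Het and 7.90 ± 1.96 for KO. On day 5 wild type had 26.8 ± 6.19 FPKM, Het had 22.7 ± 4.89 and KO had 23.3 ± 5.09. The lines lay close together at each day, and the day 5 value was above the day 3 value in each. BMP5 was the 1 ligand called in no comparison with wild type at the same day, with log2 differences of -0.45 (SE 0.50, q = 0.424 in the authors' deposited table) in KO and 0.22 (SE 0.49, q = 0.778) in Het at day 3. At day 5 these were -0.20 (SE 0.46, q = 0.803 in the authors' deposited table) and -0.24 (SE 0.46, q = 0.736).

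GREM1 (chromosome 15, 33010205 to 33026870), which binds BMP2 and BMP4 with high affinity, had a day 3 level of 0.856 ± 0.268 FPKM for wild type, 22.8 ± 4.99 for Het and 25.6 ± 5.27 for KO. The day 5 levels were 1.61 ± 0.513 FPKM for wild type, 4.42 ± 1.16 for Het and 6.82 ± 1.63 for KO. Both edited lines were high at day 3 and lower at day 5, and wild type was low at both days. KO exceeded wild type by 4.90 (SE 0.54) and Het by 4.73 (SE 0.55) on the log2 scale at day 3, each with q = 0.00126 in the authors' deposited table. At day 5 the differences were 2.08 (SE 0.57, q = 0.00126 in the authors' deposited table) in KO and 1.45 (SE 0.59, q = 0.00874) in Het, and the Het call is lost when p-values are adjusted within that comparison alone. The edited lines differed from each other by 0.17 (SE 0.43, q = 0.851 in the authors' deposited table) at day 3 and 0.63 (SE 0.51, q = 0.364) at day 5.

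CER1 (chromosome 9, 14719732 to 14722715), a product of anterior endoderm that blocks NODAL and BMP ligands, stood above 1 FPKM in KO alone. On day 3 wild type had 0.206 ± 0.134 FPKM, Het had 0.126 ± 0.0911 and KO had 17.5 ± 4.60. By day 5 the levels were 0.0598 ± 0.0687 (wild type), 0.120 ± 0.0951 (Het) and 1.60 ± 0.586 FPKM (KO). KO exceeded wild type by 6.41 (SE 1.01, q = 0.00476 in the authors' deposited table) on the log2 scale at day 3. With so little RNA in the other groups the size of that fold is poorly determined, and with a pseudocount of 1 FPKM it was 3.94. Against Het at day 3 the difference was 7.12 (SE 1.11, q = 0.0666 in the authors' deposited table), and against wild type at day 5 KO differed by 4.75 (SE 1.74, q = 0.295), so neither was called. The table gives no test of CER1 between Het and wild type.

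NOG (chromosome 17, 54671060 to 54672951), the classic high-affinity antagonist of BMP2 and BMP4, had a day 3 level of 0.319 ± 0.158 FPKM for wild type, 3.09 ± 0.986 for Het and 4.37 ± 1.37 for KO. On day 5 wild type had 2.33 ± 0.714 FPKM, Het had 3.24 ± 1.38 and KO had 3.55 ± 1.16. Wild type at day 3 stood apart from the other 5 groups. The day 3 differences were 3.77 (SE 0.84, q = 0.00316 in the authors' deposited table) in KO and 3.28 (SE 0.85, q = 0.00547) in Het. The size of these folds also rests on a low wild-type level, and with a pseudocount of 1 FPKM they were 2.02 and 1.63. At day 5 they were 0.61 (SE 0.65, q = 0.429 in the authors' deposited table) and 0.48 (SE 0.76, q = 0.628), and wild type at day 3 was the only level that differed from its neighbour in the order of levels.

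CHRD (chromosome 3, 184097861 to 184107617), the organizer antagonist chordin, moved the other way. At day 3 it had a level of 4.75 ± 1.20 FPKM for wild type, 2.27 ± 0.697 for Het and 2.06 ± 0.632 for KO. The day 5 levels were 2.24 ± 0.661 FPKM for wild type, 2.55 ± 0.908 for Het and 1.04 ± 0.426 for KO. Wild type at day 3 was the highest, and KO fell below it by 1.21 (SE 0.57, q = 0.0205 in the authors' deposited table) and Het by 1.07 (SE 0.57, q = 0.0331) on the log2 scale. CHRD transcripts are GC-rich, at 65.1%, and genes in that GC bin had median changes of -0.79 in KO and -0.73 in Het at day 3. Relative to the bin the differences were -0.41 and -0.34, and neither was called.

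FST (chromosome 5, 52776264 to 52782304), which binds activin and, less tightly, several BMPs, was by far the most abundant antagonist. Its day 3 level was 187 ± 39.8 FPKM (wild type), 171 ± 33.9 (Het) and 275 ± 54.0 (KO). By day 5 the levels were 54.4 ± 11.3 (wild type), 39.6 ± 8.66 (Het) and 18.4 ± 4.48 FPKM (KO). KO thus had the highest level at day 3 and the lowest at day 5. The day 3 difference of KO from wild type, 0.56 (SE 0.42, q = 0.154 in the authors' deposited table), was not called. At day 5 KO was lower than wild type by a log2 difference of -1.56 (SE 0.46, q = 0.00126 in the authors' deposited table) and lower than Het by one of -1.10 (SE 0.47, q = 0.0186). Het differed from wild type by -0.13 (SE 0.42, q = 0.873 in the authors' deposited table) at day 3 and -0.46 (SE 0.44, q = 0.370) at day 5.

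BAMBI (chromosome 10, 28966424 to 28971868) resembles a type I receptor without a kinase, dampens BMP and TGF-beta signalling, and is itself a BMP target. On day 3 wild type had 0.672 ± 0.282 FPKM, Het had 2.84 ± 0.937 and KO had 7.04 ± 1.95. On day 5 wild type had 2.10 ± 0.734 FPKM, Het had 2.18 ± 0.806 and KO had 5.61 ± 1.65. KO was the highest line at both days, and Het stood near wild type at day 5. KO exceeded wild type by 3.39 (SE 0.73, q = 0.00126 in the authors' deposited table) at day 3 and 1.41 (SE 0.66, q = 0.0232) at day 5. Het exceeded it by 2.08 (SE 0.77, q = 0.00126 in the authors' deposited table) at day 3, beside 0.06 (SE 0.73, q = 0.974) at day 5. With a pseudocount of 1 FPKM the BAMBI differences at day 3 were 2.27 in KO and 1.20 in Het. KO exceeded Het by 1.31 (SE 0.62, q = 0.0463 in the authors' deposited table) at day 3 and 1.36 (SE 0.68, q = 0.0421) at day 5, and both of these calls are lost when p-values are adjusted within each comparison alone.

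**Figure D2:**
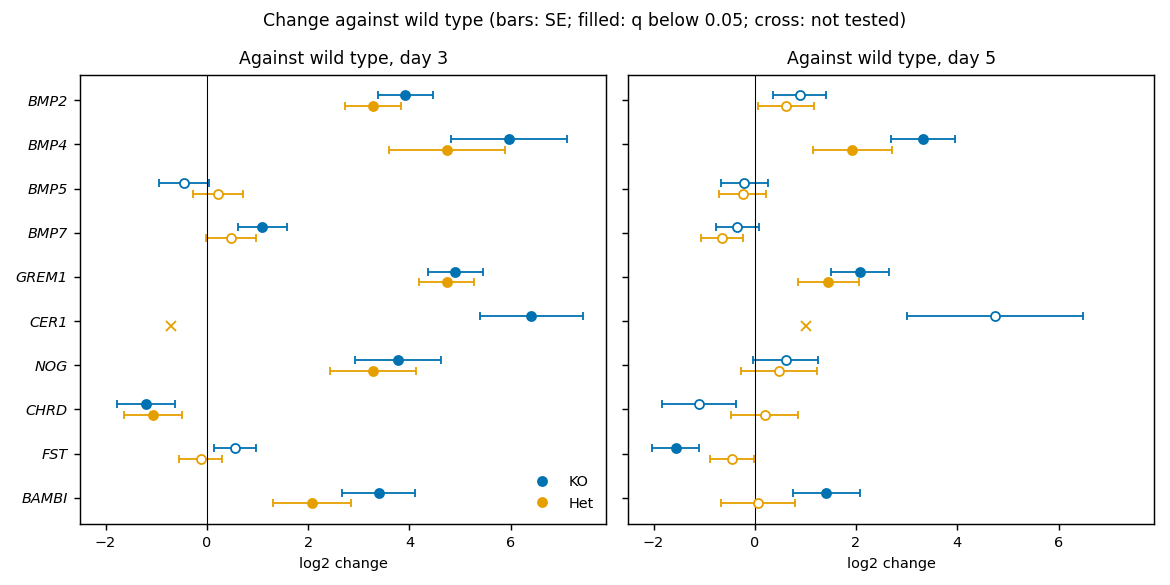
Log2 differences from wild type of the 10 members in KO and Het at day 3 and day 5, from the authors' deposited table; bars are 1 implied standard error, filled points are called and open points are not. Crosses mark CER1 in Het, which was not tested; GREM1 is at 4.90 in KO and 4.73 in Het at day 3, and BMP5 is between -0.45 and 0.22 in all 4 comparisons.

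The edited lines were also compared with each other. In KO against Het 2 of 10 members were called at day 3, beside 2.84% of 14624 tested genes in the authors' deposited table, and both were higher in KO (BMP4 and BAMBI). At day 5 there were 3 of 10, beside 8.06% of 15000 tested genes in the authors' deposited table, with BMP4 and BAMBI higher and FST lower in KO. CER1 was not called, at log2 differences of 7.12 (SE 1.11, q = 0.0666 in the authors' deposited table) at day 3 and 3.74 (SE 1.25, q = 0.0844) at day 5. With so little CER1 RNA in Het, the size of these folds is poorly determined. A member that was not called may still differ.

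Levels were also summed over the ligands and over the secreted antagonists, as FPKM is per length and so can be added over genes. The sums carry no test. They hold the RNA of the members alone and do not measure a balance of ligand and antagonist activity. The 4 ligands summed to 18.7 FPKM for wild type, 40.3 for Het and 53.8 for KO at day 3, and to 66.6, 60.6 and 82.5 at day 5. BMP4 made up 0.818% of the ligand sum for wild type, 10.2% for Het and 17.8% for KO at day 3, and 3.61%, 15.1% and 29.1% at day 5. The wild-type ligand pool was thus mainly BMP5 and BMP7, and BMP2 and BMP4 had a larger share of it in the edited lines. The 5 secreted antagonists summed to 193 FPKM for wild type, 199 for Het and 325 for KO at day 3, and to 60.7, 49.9 and 31.4 at day 5. FST alone was 96.8% of the wild-type antagonist sum at day 3 and 58.6% of the KO sum at day 5. Without FST, the other antagonists summed to 6.13 FPKM for wild type, 28.3 for Het and 49.6 for KO at day 3, and to 6.23, 10.3 and 13.0 at day 5.

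**Figure D3:**
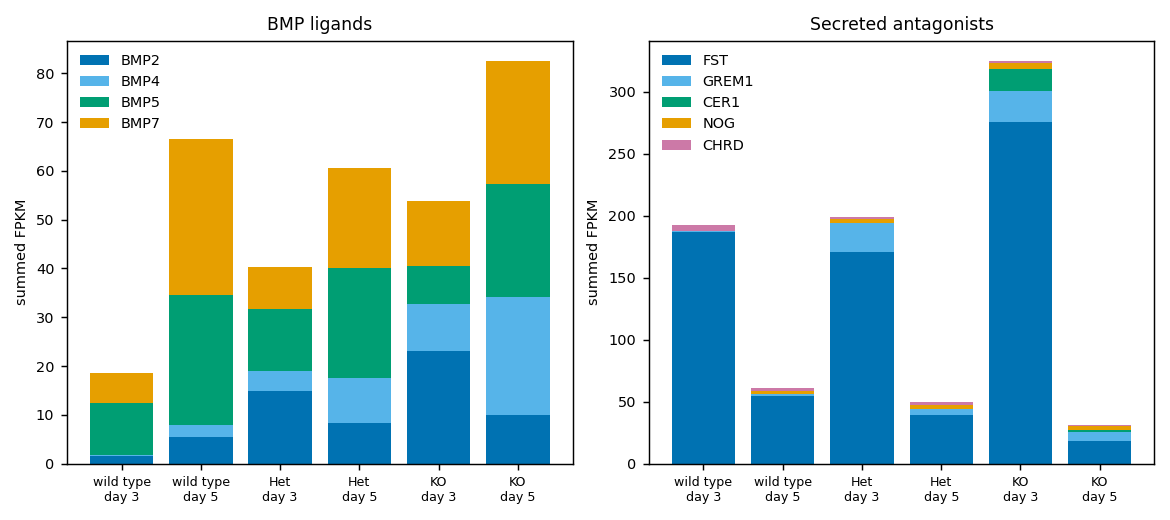
Summed FPKM of the 4 ligands and of the 5 secreted antagonists in the 6 groups of the authors' deposited table, as stacked bars from 0 split by gene, with no error bars. FST fills most of every antagonist bar, and KO has the highest antagonist bar at day 3 (325 FPKM) and the lowest at day 5 (31.4 FPKM).

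Changes from day 3 to day 5 were first taken within each line. In wild type 8 of 9 tested members were called, beside 21.6% of 14680 tested genes in the authors' deposited table. BMP2 rose by 1.83 (SE 0.60), BMP4 by 3.98 (SE 1.18), BMP5 by 1.31 (SE 0.48), BMP7 by 2.37 (SE 0.46), NOG by 2.87 (SE 0.84) and BAMBI by 1.65 (SE 0.79) on the log2 scale. CHRD fell by 1.09 (SE 0.56), a call lost within its GC bin (-0.33), and FST fell by 1.78 (SE 0.43). With a pseudocount of 1 FPKM the changes of the 3 members lowest at day 3 among those that rose were 1.56 for BMP4, 1.33 for NOG and 0.89 for BAMBI. GREM1 changed by 0.91 (SE 0.64, q = 0.0760 in the authors' deposited table) and was not called. The median change of expressed genes in wild type went from 0.47 in the lowest GC bin to -0.76 in the highest. In Het it went from -0.002 to 0.20 and in KO from 0.11 to 0.03.

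In Het 3 of 9 tested members were called over the same days, beside 7.57% of 14795 tested genes in the authors' deposited table. BMP7 rose by 1.24 (SE 0.45), while GREM1 fell by 2.37 (SE 0.49) and FST fell by 2.11 (SE 0.43) on the log2 scale. In KO 7 of 10 were called, beside 11.8% of 14995 tested genes in the authors' deposited table. BMP4 rose by 1.33 (SE 0.54), BMP5 by 1.56 (SE 0.48) and BMP7 by 0.93 (SE 0.44). BMP2 fell by 1.20 (SE 0.47), GREM1 fell by 1.91 (SE 0.46), CER1 fell by 3.45 (SE 0.65) and FST fell by 3.90 (SE 0.45). FST was the 1 member called lower at day 5 in all 3 lines and BMP7 the 1 called higher in all 3. BMP4 and BMP5 also had their higher level at day 5 in all 3 lines. In Het they missed the threshold, at 1.16 (SE 0.72) and 0.85 (SE 0.47), each with q = 0.0792 in the authors' deposited table.

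Whether these changes differed between lines was tested as the day change in the edited line minus that in wild type, over its SE, as a 2-sided normal p with Benjamini-Hochberg adjustment over all genes. With 1 value per group no exact test over libraries can be made, so these p-values rest on the SEs of the authors' deposited table. In KO 1 of the 10 members was called, beside 0.381% of 14699 tested genes. That was BMP2, with a difference of -3.04 (SE 0.76, adjusted p = 0.0232 from the SEs of the authors' deposited table). In Het 1 of 10 was called, beside 0.116% of 14710 tested genes. That was GREM1, with a difference of -3.28 (SE 0.81, adjusted p = 0.0444 from the SEs of the authors' deposited table). GREM1 in KO (-2.82, SE 0.79, adjusted p = 0.0721), FST in KO (-2.12, SE 0.62, adjusted p = 0.104), NOG in KO (-3.16, SE 1.06, adjusted p = 0.269) and BMP2 in Het (-2.67, SE 0.79, adjusted p = 0.326) missed the threshold by the SEs of the authors' deposited table. With the SE scaled to the deposited p-values these 4 were called as well.

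**Figure D4:**
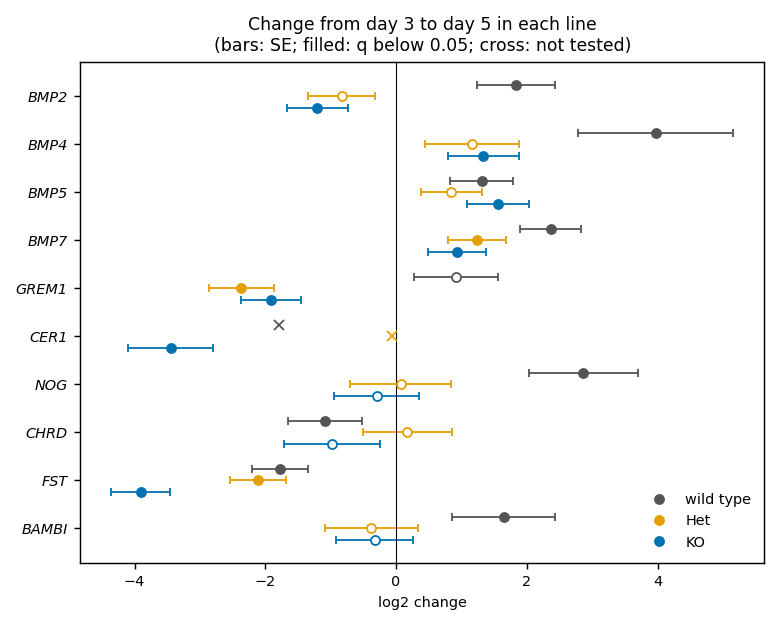
Log2 change from day 3 to day 5 of each member in wild type, Het and KO, from the authors' deposited table; bars are 1 implied standard error, filled points are called and open points are not. Crosses mark CER1 where it was not tested. BMP2 is at 1.83 in wild type and -1.20 in KO, and GREM1 is at -2.37 in Het.

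Set against wild type at day 5, a comparison added after the data were seen, the edited lines at day 3 differed in most members tested. The members called, and for BMP7 in KO the direction, were not the same as against wild type at day 3. KO at day 3 differed from wild type at day 5 in 7 of 10 members, beside 17% of 14787 tested genes in the authors' deposited table. BMP2 was higher by 2.09 (SE 0.51), BMP4 by 1.99 (SE 0.67), GREM1 by 3.99 (SE 0.55), FST by 2.34 (SE 0.41) and BAMBI by 1.74 (SE 0.64), while BMP5 (-1.76, SE 0.49) and BMP7 (-1.28, SE 0.44) were lower. Het at day 3 differed in 5 of 9 tested members, beside 13.7% of 14711 tested genes in the authors' deposited table. BMP2 was higher by 1.45 (SE 0.52), GREM1 by 3.82 (SE 0.56) and FST by 1.65 (SE 0.41), and BMP5 (-1.09, SE 0.48) and BMP7 (-1.88, SE 0.46) were lower. NOG and CHRD were called in neither comparison, and CER1 was not called in KO (8.19, SE 1.70, q = 0.295 in the authors' deposited table) and not tested in Het. BMP4 and BAMBI, called in Het against wild type at day 3, were not called here in Het (q = 0.318 and 0.674 in the authors' deposited table).

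Other parts of the pathway were followed through lists of textbook membership, with calls from the authors' deposited table. Their counts stand beside shares over all tested genes of 4.34% higher and 5.17% lower in KO and 1.68% and 4.63% in Het at day 3. At day 5 these shares were 7.58% and 5.68% in KO and 1.14% and 1.02% in Het. Counts of 1 or 2 genes in a list are given as values, with nothing read from them. Of the response genes, which SMADs switch on, 5 of 10 tested were higher and none lower in KO at day 3, and 4 of 9 tested were higher and none lower in Het. Their median log2 difference was 1.66 in KO and 1.47 in Het. The homeobox gene MSX1 went from 0.812 FPKM in wild type to 13.4 in KO (log2 4.04, SE 0.67) and 9.42 in Het (3.54, SE 0.68). Its paralog MSX2 went from 1.24 to 18.0 (3.85, SE 0.60) and 18.2 (3.87, SE 0.61). ID1, an inhibitor of bHLH factors, was higher by 1.81 (SE 0.57) in KO and 1.47 (SE 0.58) in Het. The inhibitory SMAD7 was higher by 2.35 (SE 0.66) in KO, and ID4 by 1.99 (SE 0.52) in Het.

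At day 5, 2 of 9 tested response genes were higher and 1 lower in KO, and 2 of 8 were higher and none lower in Het, with medians of -0.17 and 0.42. MSX1 was higher by 1.81 (SE 0.54) in KO and 1.98 (SE 0.65) in Het, and MSX2 by 1.90 (SE 0.52) and 2.17 (SE 0.56). SMAD6, an inhibitory SMAD, was the lower one in KO, by a log2 difference of -2.12 (SE 0.72). In wild type over time 4 of 8 tested response genes rose and none fell, beside 21.6% of all tested genes called in either direction.

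Of the receptors and co-receptors, 1 of 8 tested was higher and 1 lower in KO at day 3, and 0 were higher and 2 lower in Het, with medians of -0.03 and -0.10. The type I receptor BMPR1A was higher by 0.75 (SE 0.43) in KO. The co-receptor RGMA was lower in both lines at both days, with log2 differences of -1.82 (SE 0.43) in KO and -1.66 (SE 0.42) in Het at day 3 and of -2.35 (SE 0.47) and -0.90 (SE 0.42) at day 5. Its relative RGMB was lower by a log2 difference of -0.80 (SE 0.43) in Het at day 3 and -1.33 (SE 0.44) in KO at day 5. At day 5, 2 of 9 tested receptors were higher and 2 lower in KO, and 0 of 8 were higher and 1 lower in Het, with medians of 0.01 and -0.43. The co-receptor ENG went from 0.179 FPKM in wild type to 3.83 in KO (log2 4.42, SE 0.80), and BMPR1B was higher by 1.52 (SE 0.57).

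None of the 6 tested SMADs and their regulators was called in the 4 comparisons with wild type at the same day, and at an unadjusted p below 0.05 by Cuffdiff 1 was higher, in Het at day 3. Their medians ran from -0.22 to 0.19. Of the other extracellular modulators, 1 of 10 tested was higher in each line at day 3, which was FSTL1 (0.72, SE 0.41 in KO and 0.70, SE 0.41 in Het). At day 5, 2 of 9 were higher and 1 lower in KO, and none of 9 was called in Het, where 1 was lower at an unadjusted p below 0.05 by Cuffdiff. CHRDL1, a chordin-like antagonist, was higher by 1.24 (SE 0.54) and CRIM1 by 0.98 (SE 0.51), and TWSG1 was lower by a log2 difference of -1.05 (SE 0.43). Of the other ligands, GDF10 was the 1 called in these 4 comparisons with wild type at the same day. It was higher by 1.51 (SE 0.65) in Het at day 3, and by 1.98 (SE 0.87) in KO and 1.78 (SE 0.84) in Het at day 5, among 4 tested in each case, and 0 of 5 were called in KO at day 3, where 1 was higher at an unadjusted p below 0.05 by Cuffdiff.

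CER1 and FST also bind ligands of the NODAL and activin branch. Of that list 2 of 3 tested genes were higher in KO at day 3. NODAL went from 0.642 FPKM in wild type to 5.22 in KO (log2 3.02, SE 0.69), and its co-receptor TDGF1 from 0.467 to 7.62 (4.03, SE 0.77). In Het at day 3 and in both lines at day 5 none of the 1 or 2 tested was called, and at an unadjusted p below 0.05 by Cuffdiff 1 was higher, in KO at day 5.

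**Figure D5:**
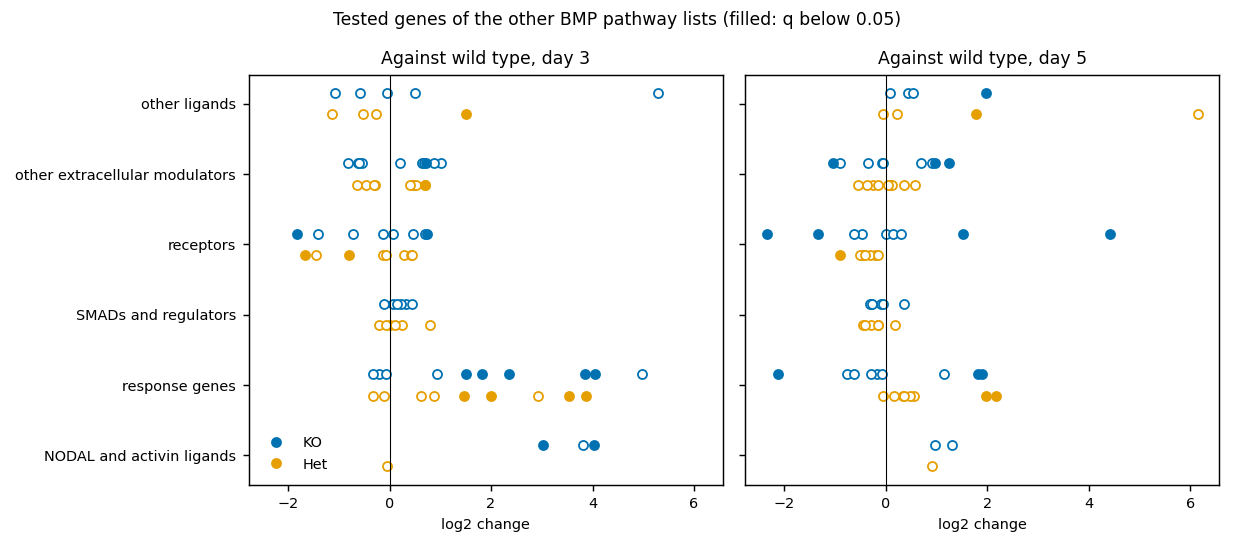
Log2 differences from wild type of the tested genes in 6 BMP and NODAL pathway lists, in KO and Het at day 3 and day 5, from the authors' deposited table; each point is a gene, filled where called. Called response genes reach 4.04 in KO at day 3, the open points farthest to the right did not pass the test, and no SMAD or regulator is called.

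Markers of cell types were summed in the same groups. The 10 neural crest and border markers summed to 13.5 FPKM for wild type, 70.1 for Het and 96.9 for KO at day 3, and to 45.6, 111 and 250 at day 5. The number at 1 FPKM or more was 3, 7 and 10 of 10 at day 3 and 6, 10 and 10 at day 5. The 12 primitive streak, mesoderm and endoderm markers summed to 2.19 FPKM for wild type, 4.57 for Het and 31.9 for KO at day 3, and to 1.24, 2.51 and 8.02 at day 5. In wild type 0 of the 12 reached 1 FPKM at either day, with SOX17, FOXA2, GATA4 and HAND1 at 0. In KO 5 did at day 3, with MESP1 at 0, and 2 did at day 5. In Het 1 did at each day, with FOXA2 and MESP1 at 0 at day 3 and T, SOX17 and FOXA2 at 0 at day 5. MIXL1 stood at 0.219, 0.322 and 9.35 FPKM in wild type, Het and KO at day 3, and EOMES at 0.0189, 0.0486 and 4.46. KDR stood at 0.971, 3.45 and 13.1 FPKM in the same groups. Of the crest and border list 6 of 10 tested genes were called higher in KO and 5 in Het at day 3, and 9 and 8 at day 5, in the authors' deposited table. Of the streak, mesoderm and endoderm list 3 of 6 tested were called higher in KO at day 3, 2 of 5 in KO at day 5, and the 1 tested in Het at each day. None of either list was called lower in these comparisons. Over all tested genes, 4.34% were called higher in KO and 1.68% in Het at day 3, and 7.58% and 1.14% at day 5. The shares called lower were 5.17% and 4.63% at day 3 and 5.68% and 1.02% at day 5. MSX1 is also among the response genes. The part of either list in the member differences of KO and Het was not tested.

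The other 3 lists were summed in the same way. The 6 pluripotency markers summed to 153, 101 and 204 FPKM in wild type, Het and KO at day 3 and to 79.6, 71.1 and 63.6 at day 5. By the deposited q, 2 of 6 tested were called higher in KO at day 3, and 1 was higher and 1 lower at day 5. In Het 2 of 5 tested were called lower at day 3 and 0 of 5 were called at day 5. The 8 non-neural ectoderm markers summed to 90.8, 81.7 and 113 FPKM at day 3 and to 58.0, 71.9 and 86.0 at day 5. Most of each sum came from KRT18 (34.2, 30.4 and 50.3 FPKM at day 3) and KRT19 (48.6, 44.2 and 40.3), so it says little of the other markers. Of the 8 markers, 2 of 7 tested were called higher in KO at day 3 and 4 of 6 at day 5. In Het 1 of 6 was called higher and 1 lower at day 3 and 1 of 4 higher at day 5. The 6 neural progenitor markers summed to 218, 112 and 82.3 FPKM at day 3 and to 178, 128 and 61.3 at day 5. In KO 4 of the 6 were called lower at each day, and in Het 3 of 6 at day 3 and 0 of 6 at day 5, with none called higher. Beside the counts of all 3 lists, 4.34% of all tested genes were higher and 5.17% lower in KO at day 3. In KO at day 5 these shares were 7.58% and 5.68%. In Het they were 1.68% and 4.63% at day 3 and 1.14% and 1.02% at day 5. No gene had 0 FPKM in these 3 lists or in the neural crest list, and their part in the member differences was not tested.

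Genes that followed a member across the 6 groups were ranked by the root mean square difference of centred log2(FPKM + 0.1) profiles, over the 14837 genes that reached 1 FPKM in some group. The nearest to BMP4 was the crest and epidermal factor TFAP2A (0.37), followed by the cadherins CDH6 (0.64) and PCDH10 (0.65). The nearest to CER1 were the homeobox gene MIXL1 (0.60), the WNT antagonist DKK4 (0.60) and GDF3 (0.67), a TGF-beta family ligand. The nearest to BMP2 were ANXA3 (0.26), SEMA3A (0.39) and EPHA7 (0.42), and to GREM1 the hedgehog-binding HHIP (0.62), TNIK (0.64) and ACTC1 (0.65). EPHA7 was also the third nearest to NOG (0.42), after ARL2-SNX15 (0.28) and DACH1 (0.29). The nearest to BAMBI was HS6ST2 (0.23) and to FST was FAM174B (0.28). The profiles rest on 6 points that share the same libraries, and with a pseudocount of 1 in place of 0.1 only 12 of the 30 nearest genes were kept. Of the genes named here, TFAP2A, CDH6, MIXL1, ANXA3, SEMA3A, ACTC1, HS6ST2 and FAM174B were kept and the others were not.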

How the data were processed

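RNA of 16 libraries was sequenced by the submitters, whose processing notes name TopHat2 2.1.1, Cuffdiff 2.2.1 and hg19. Not given in the sources used here are library filters, annotation version and strand counting. The authors' deposited table covers 23284 genes in each of 15 comparisons of 6 groups, of which 9 were used, and another 2 across days were added after the data were seen. Expression in the deposited table is in FPKM, with 1 value for each gene in a group. The deposited fold changes are log2, and the deposited test score divides the natural log of the fold by its standard error. The deposited p-value, at least 5e-05, and q-value are Cuffdiff's own and are not a normal p of this score. The median ratio of the score to the normal score of the deposited p-value ran from 0.547 to 0.713 over the 9 comparisons, taken at intermediate p-values. A q-value therefore cannot be worked out from the SE printed beside it. Depth per sample is unknown, so precision rests on that score. Loci are given in hg19, counted from 1.

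A gene was called at a deposited q below 0.05. Standard errors were computed from the deposited fold and score, and split into 1 variance per group. The difference of day changes used a 2-sided normal p with Benjamini-Hochberg adjustment over all genes and was tested on simulated data. The simulation drew its noise with the same standard errors that the test used. It thus checks the calculation and cannot show that those standard errors fit the real libraries. Percentages of called genes are over all tested genes. Alternatives were adjustment within a comparison, a minimum of 1 FPKM or of 2-fold, pseudocounts of 0.1 and 1, centring on the median or within 20 bins of transcript GC content, p-values remade from the score, and scaled standard errors. Software was Python 3.11.15 with numpy 2.4.6, pandas 2.3.3, scipy 1.17.1 and matplotlib 3.10.9.

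All 10 members are named. Other pathway genes named are at most 4 per list and comparison with wild type, by size of the log2 change among those called with at least 1 FPKM. For likeness, the 3 genes nearest to a member could be named. FOXB1 is named as the targeted gene. SNAI2, PAX3, ZIC1, SOX10, PAX7, FOXD3, MIXL1, EOMES, KDR, KRT18 and KRT19, named from the marker lists, were chosen after their values were seen. The members and lists were chosen with earlier results of these data known.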

Additional observations from a re-analysis of the deposited data

Results flagged for a closer look

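The change of BMP2 from day 3 to day 5 differed between KO and wild type by -3.04 on the log2 scale (SE 0.76, Benjamini-Hochberg adjusted p = 0.0232 from the standard errors of the authors' deposited table). The lines moved in opposite directions, from 1.53 to 5.45 FPKM in wild type and from 23.2 to 10.1 FPKM in KO. The change of GREM1 differed between Het and wild type by -3.28 (SE 0.81, adjusted p = 0.0444 from the standard errors of the authors' deposited table), from 0.856 to 1.61 FPKM in wild type and from 22.8 to 4.42 FPKM in Het. Each was singled out because a test of the difference itself passed its threshold. The other edited line had a difference of similar size that missed it, at -2.67 (SE 0.79) for BMP2 in Het and -2.82 (SE 0.79) for GREM1 in KO. The share of all genes that passed was 0.381% for KO and 0.116% for Het.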

How the results depend on the processing

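No paired analysis was possible because the table has 1 value per gene and group and no column per replicate. Leaving out a replicate, a replicate block and a check on single libraries could not be run for the same reason.

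No direction of a called member reversed. Adjusting p-values within a comparison alone, or testing genes with at least 1 FPKM, left 1 member in place of 2 in Het against wild type at day 5 (BMP4 was kept) and 0 in place of 2 in KO against Het at day 3, where 4 passed an unadjusted p below 0.05 by Cuffdiff. With scaled standard errors, the members whose day change differed from wild type numbered 4 in place of 1 in KO and 2 in place of 1 in Het. A pseudocount of 1 lowered the log2 differences of the members at low levels, as given beside BMP4, CER1, NOG and BAMBI, and kept 12 of the 30 nearest genes. The cause of these shifts was not tested.

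For single members, centring within GC bins ended the CHRD calls, the BMP4 call between KO and Het at day 3 and the BAMBI call between them at day 5, which centring on the median ended too. Remaking p-values from the score, an alternative added after the data were seen, made CER1 a call in KO against wild type at day 5 and in KO against Het at both days. Adjusting within the comparison ended the Het call of CHRD at day 3 and made GREM1 a call in wild type over time. BMP7 over time in KO was below 2-fold. Depth is unknown, so limits at low levels such as CER1 in wild type rest on the implied standard errors.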

Other observations

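The deposited p-values of CER1 were not ordered by the size of its differences. Against wild type at day 3, KO had a log2 difference of 6.41 (SE 1.01) with p = 0.00025 in the authors' deposited table. Against Het at day 3 the difference was 7.12 (SE 1.11) with p = 0.0085 in the authors' deposited table. KO at day 3 against wild type at day 5 differed by 8.19 (SE 1.70) with p = 0.0771 in the authors' deposited table. The largest of these 3 differences thus had the largest p-value.

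GDF3 is a TGF-beta family ligand whose profile was among the 3 nearest to that of CER1 with a pseudocount of 0.1 but not of 1. It stood at 0.0998 FPKM in wild type, was listed at 0 in Het and stood at 3.90 in KO at day 3. Its difference between KO and wild type (5.29, SE 1.46, q = 0.135 in the authors' deposited table) was not called. Between KO and Het at day 3 GDF3 was called higher in KO (q = 0.00126 in the authors' deposited table), with no fold given because Het is listed at 0. GDF3 was named after its values were seen.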
